A study of Arabidopsis lyrata subsp. lyrata with 8 samples.

Results

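The levels of arabinogalactan protein genes were described in 2 organs, the root and the flower bud, of A. lyrata ssp. lyrata, a close relative of A. thaliana. The genes were found by A. thaliana locus code in the names of the gene models on the array, and 8 of the 10 codes sought were there, each as 1 of the 32386 gene models. They were AGP6 (AT5G14380), AGP11 (AT3G01700), AGP12 (AT3G13520), AGP23 (AT3G57690), AGP24 (AT5G40730), AGP30 (AT2G33790), AGP31 (AT1G28290) and AT2G41905, which has no symbol here. The codes of AGP14 (AT5G56540) and AGP40 (AT3G20865) were in no model name, and these genes were not analysed here. The 10 codes were selected on gene family and on root and flower bud signals of these arrays, so the tissue differences of these 8 genes are given as a description, with no test.

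Arabinogalactan proteins are cell surface and wall proteins whose backbone is rich in hydroxyproline, alanine, serine and threonine and carries large branched arabinose and galactose chains. Many are held to the plasma membrane by a lipid anchor. Classical members have a long backbone, arabinogalactan peptides a very short one, and the non-classical or chimeric members join the glycosylated stretch to another domain, such as the fasciclin domain. In A. thaliana, members are known for roles in root growth and in pollen development and pollen tube growth.

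Plants were 6 weeks old and grown hydroponically from seed stratified for 7 days, with no treatment named; the growth notes also write col 0 after the species name. Each of the 4 root and 4 flower bud replicates was tissue of 8 to 10 plants, pooled, so an array averages over all cell types of the organ. All were hybridised with the dye Cy3 to the 8 arrays of 1 custom Agilent slide, read in 1 scan, with root arrays in row 1 and flower bud arrays in row 2, so an effect of the row cannot be told apart from one of tissue. Of the spots, 73.0% to 75.2% were well above background on root arrays and 78.9% to 80.5% on flower bud arrays, and 0 were saturated. The variance between flower bud arrays 1 and 2 was 0.688 times that expected from the scatter of repeated spots on 1 array, and 0.792 times for arrays 3 and 4, against 3.38 to 16.2 times for the other pairs within a tissue. Both pairs thus differed by less than this sampling noise. They were averaged to sample A (arrays 1 and 2) and sample B (arrays 3 and 4), which left 4 root and 2 flower bud samples. The labels number all 4 flower bud arrays as separate replicates, so samples A and B rest on these variances and not on the labels. So few samples limit the precision, and any p-value reflects only the spread among them. The tissue labels were checked by markers. Of 6 carpel markers listed, 5 were on the array, and these set the tissues apart only in part. CRC was 213-fold higher in flower bud, while NTT and HEC3 lay within 2-fold. HEC1 and HEC2 were too dim in both tissues to be tested. All 4 root epidermis and endodermis genes (CASP1, CASP2, SCR, WER) and all 4 measured root hair genes were higher in root. All 4 measured floral organ identity genes (AP1, AP3, PI, SEP3) were higher in flower bud. CASP2, WER, PER7, RHS18 and RSL4 were well above background on no flower bud array, and AP1 on no root array. Each was tested only because all arrays of the other tissue were well above background, so a difference in these directions was favoured.

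Levels are log2 signals relative to the 75th percentile of the array, so 0 marks that percentile. Each gene was read by 1 probe with 2 spots per array, except AGP24, which had 1 spot. Levels of different probes cannot be set against each other. Each difference is the root mean minus the flower bud mean in log2 units, with the standard error of the fit, so negative values are higher in flower bud. Of the 8 genes, 3 were at least 2-fold higher in root, 4 were at least 2-fold higher in flower bud, and AGP24 lay within 2-fold. Among the 26420 models that were tested, 52.6% reached 2-fold with no test. In bulk tissue, fewer cells of a type and less RNA per cell cannot be told apart.

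**Figure D1:**
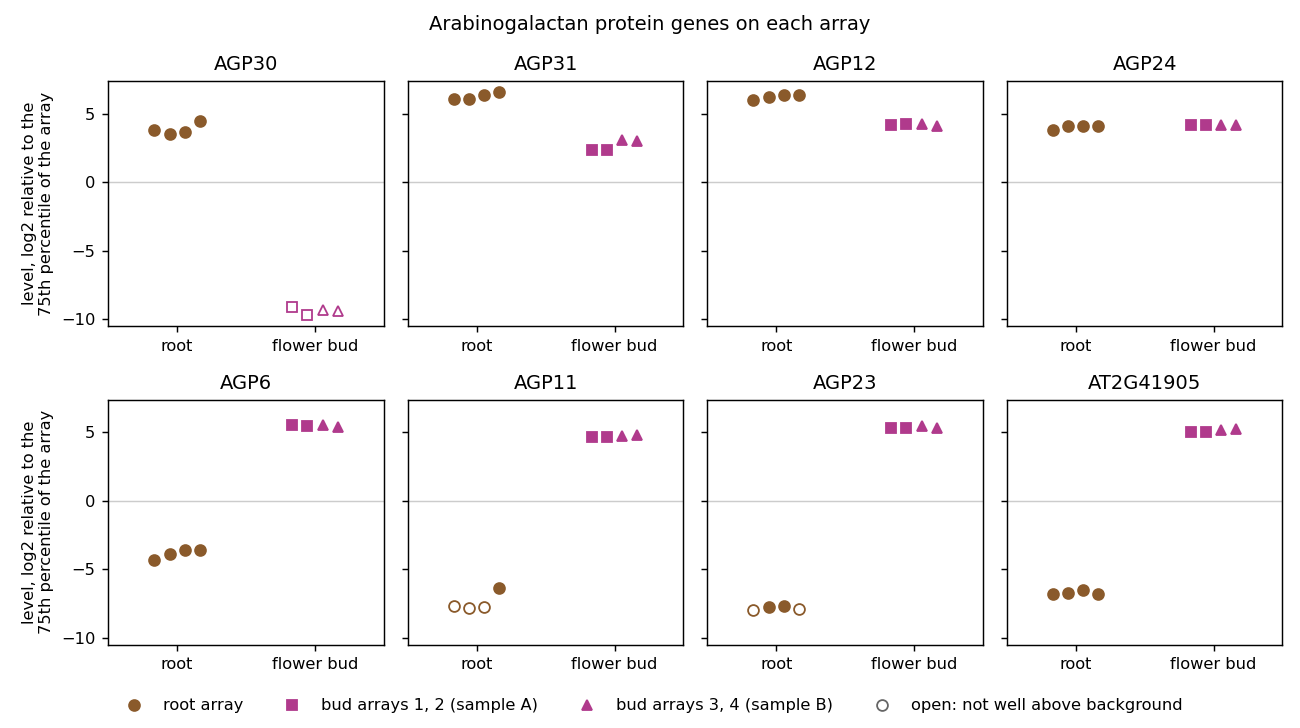
Level of each of the 8 genes on each array, as log2 relative to the 75th percentile of that array, for root (circles) and flower bud (squares for arrays 1 and 2, triangles for arrays 3 and 4); open symbols were not well above background. AGP30 lay near 4 in root and at open symbols below -9 in flower bud, AGP24 lay near 4 in both, and AGP6, AGP11, AGP23 and AT2G41905 lay above 4 in flower bud and below -3 in root.

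The root-side genes were AGP30, AGP31 and AGP12. AGP30, a non-classical member known from roots of A. thaliana, was at 3.78, 3.50, 3.66 and 4.44 in root replicates 1 to 4. On flower bud arrays 1 to 4 it was at -9.11, -9.67, -9.28 and -9.42. It was thus bright on every root array and well above background on no flower bud array. Its background-subtracted signal before scaling was 37298 to 61363 in root and 6.27 to 9.27 in flower bud. Because flower bud gave only a bound, AGP30 was at least 3252-fold higher in root; the bound sets the root mean against the lowest signal per flower bud array among probes with all spots well above background. The measured difference was 13.21 ± 0.27. With the normexp background correction, which adds an offset of 50 to every signal, it was 9.82 or, after quantile normalization, 9.61, both below that bound.

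AGP31, a non-classical member of A. thaliana that joins a histidine-rich stretch and a proline-rich region to a cysteine-containing domain, was high in both tissues. It was at 6.06, 6.09, 6.33 and 6.56 in root and at 2.33, 2.33, 3.11 and 2.97 on the flower bud arrays. All root arrays lay above all flower bud arrays, though 78.8% of all gene models tested had tissues that did not overlap. Its difference was 3.57 ± 0.25, or 11.9-fold. Within flower bud sample B exceeded sample A by 0.71, so that the difference was 3.93 without sample B and 3.22 without sample A.

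AGP12, an arabinogalactan peptide, was also bright in both tissues. It was at 5.95, 6.18, 6.33 and 6.33 in root and at 4.17, 4.21, 4.25 and 4.06 in flower bud. Root arrays were higher throughout, with a difference of 2.02 ± 0.16, or 4.07-fold, and the standard deviation over the root replicates was 0.18 (n = 4). Scaled to the spike-in probes, which lowered every difference by 0.71, AGP12 was at 1.32, AGP31 at 2.86 and AGP30 at 12.50, still higher in root by over 2-fold.

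AGP24, another arabinogalactan peptide, was the gene that did not separate the organs by 2-fold. It was at 3.79, 4.06, 4.10 and 4.08 in root and at 4.16, 4.16, 4.18 and 4.18 in flower bud. The 2 sets of values did not overlap, but the gap was small beside the spread in root: the difference was -0.16 ± 0.14, and the standard deviation in root was 0.15 (n = 4). Of all gene models tested, 78.8% had arrays of the tissues that did not overlap. The sign of this small difference turned with the scaling, to 0.09 with equal array medians, against -0.87 when arrays were scaled to the spike-in probes.

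The flower bud-side genes were AGP6, AGP11, AGP23 and AT2G41905. AGP6 and AGP11 are closely related classical arabinogalactan proteins of A. thaliana pollen and pollen tubes, and AGP23 is an arabinogalactan peptide. AGP6 was at -4.30, -3.91, -3.59 and -3.62 in root and at 5.49, 5.47, 5.53 and 5.40 in flower bud. Its difference was -9.33 ± 0.23, or 642-fold higher in flower bud. Although low in root, AGP6 was well above background on all 4 root arrays. Its signals before scaling were 207 to 245 there, against 208054 to 229889 in flower bud.

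AGP11 was at -7.70, -7.85, -7.73 and -6.35 in root and at 4.66, 4.67, 4.74 and 4.80 in flower bud. Only root replicate 4 was well above background in root, where its signal before scaling was 31.2. The difference of -12.12 ± 0.44 therefore rests mostly on root signals near background, and it was -12.48 without root replicate 4 and -9.92 with normexp and the 75th percentile.

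AGP23 was at -7.96, -7.74, -7.64 and -7.91 in root and at 5.28, 5.29, 5.41 and 5.33 in flower bud. In root it was well above background on replicates 2 and 3, each time at 1 of its 2 spots, so that 2 of its 8 root spots were. Its root level lay, on each root array, below the lowest level among probes with all spots well above background. The measured difference of -13.14 ± 0.14 therefore rests on root signals near background, and its standard error does not cover that; it was -10.75 with normexp and the 75th percentile. AT2G41905 was at -6.81, -6.73, -6.50 and -6.76 in root and at 4.99, 5.02, 5.19 and 5.19 in flower bud. It was low on every root array, yet all 8 of its root spots were well above background. Its difference was -11.80 ± 0.15, or 3561-fold, and -10.26 with normexp and the 75th percentile. Binding of one related gene's RNA by the probe of another was not tested, since probe sequences were not used here.

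Over the 6 genes well above background on all root arrays, the root replicates ranged over 0.30 (AT2G41905) to 0.95 (AGP30); over all 23223 such gene models the median range was 0.49, and 14.0% ranged over at least 2-fold. AGP30, AGP6 and AGP31 lay above that median, and AGP11, not well above background on 3 root arrays, ranged over 1.51. AGP30 was highest in root replicate 4, by 0.80 over the mean of the other 3, and AGP31 by 0.40. The spots of a probe lay within a median of 0.03 (AGP12) to 0.54 (AGP23) of each other on an array for the 7 genes with 2 spots.

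Values in the flower bud samples lay within 2-fold of each other. Of the 7 genes well above background on all flower bud arrays, 0 differed by 2-fold between samples B and A; the differences ran from -0.04 (AGP12) to 0.71 (AGP31), and the 4 flower bud-side genes lay between -0.02 (AGP6) and 0.18 (AT2G41905). Of all 24930 gene models well above background on all flower bud arrays, 4.16% differed by at least 2-fold (3.00% higher in sample B and 1.16% higher in sample A), and the median absolute difference was 0.16. The 6 measured markers of the tapetum, the anther layer that feeds developing pollen, were all higher in sample B, by 1.41 (AMS) to 5.27 (MS1), with a median of 2.67. Of the pollen markers, VGD1, a pectin methylesterase of the pollen tube, differed by 0.02, MGH3, a histone of sperm cells, by 0.56 and DUO1, a regulator of sperm formation, by 0.94. With 1 sample on each side these differences have no replicate check.

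**Figure D2:**
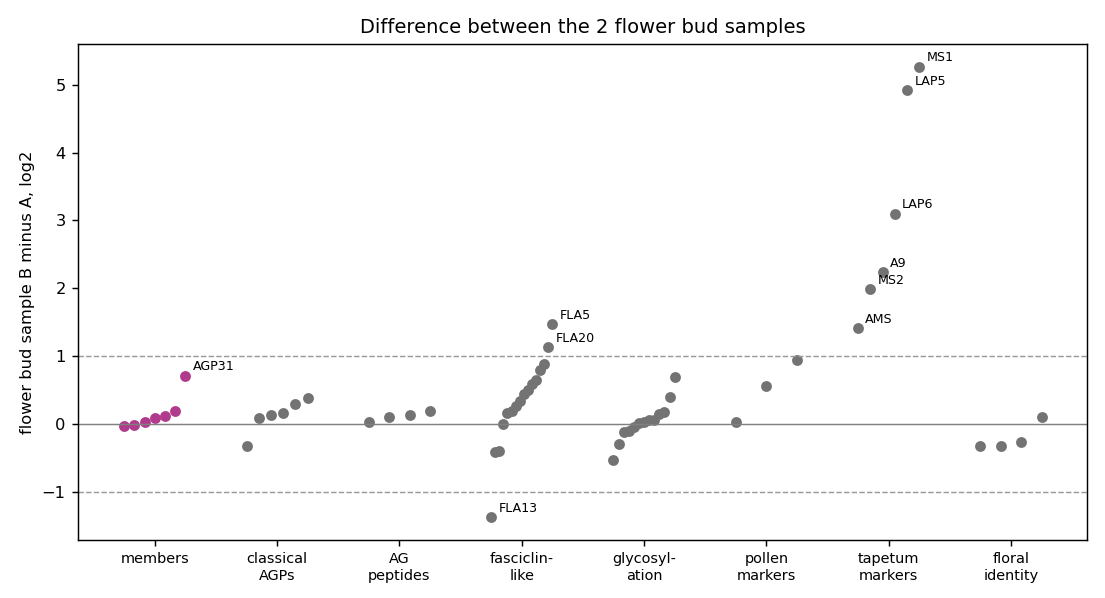
Difference between flower bud samples B and A on the log2 scale for gene models well above background on all 4 flower bud arrays, by gene list; each point is 1 gene model and dashed lines mark 2-fold. The described genes ("members") stayed within 2-fold, with AGP31 highest at 0.71, while all 6 tapetum markers lay above 2-fold.

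The pollen and root hair markers differed between the tissues as well. Of 8 pollen markers listed, 3 were on the array (VGD1, MGH3, DUO1), and their summed level, on a linear scale where 1 is the 75th percentile, was 73.3 to 77.1 in flower bud and 0.00984 to 0.0134 in root. These sums add signals of different probes, and VGD1 made up most of the one in flower bud. Gene by gene, the differences were -14.46 ± 0.64 for VGD1, -8.29 ± 0.23 for MGH3 and -5.24 ± 0.52 for DUO1, with 1, 2 and 1 of the root arrays well above background. All 3 entered the fit through flower bud alone, so this direction was favoured by the filter. The sizes of these differences rest on root signals near background. The root hair markers PER7, RHS18, RSL4 and COBL9, 4 of 8 listed, summed to 7.58 to 10.6 in root, mostly PER7, and to 0.397 to 0.433 in flower bud, nearly all COBL9, the only one well above background there. COBL9 differed by 2.37 ± 0.15, and PER7, RHS18 and RSL4 were at least 1359-fold, 242-fold and 7.19-fold higher in root. The part of pollen cells or root hair cells in the levels of the 8 genes was not tested.

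Other genes of the family were taken from lists drawn up by family membership, and they were tested in the fit across all gene models, with limma and Benjamini-Hochberg adjustment. Calls needed both an adjusted p under 0.05 and a change of 2-fold or more. Over all gene models 51.5% were called, with 24.3% on the root side and 27.2% on the flower bud side. Flower bud held 52.9% of these calls, and 72.7% under spike-in scaling, which moved the median of all gene models from 0.0038 to -0.71; equal medians moved it to 0.26. Of 28 other arabinogalactan protein genes tested, 18 passed as higher in root and 4 as higher in flower bud, and the median difference was 1.79.

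**Figure D3:**
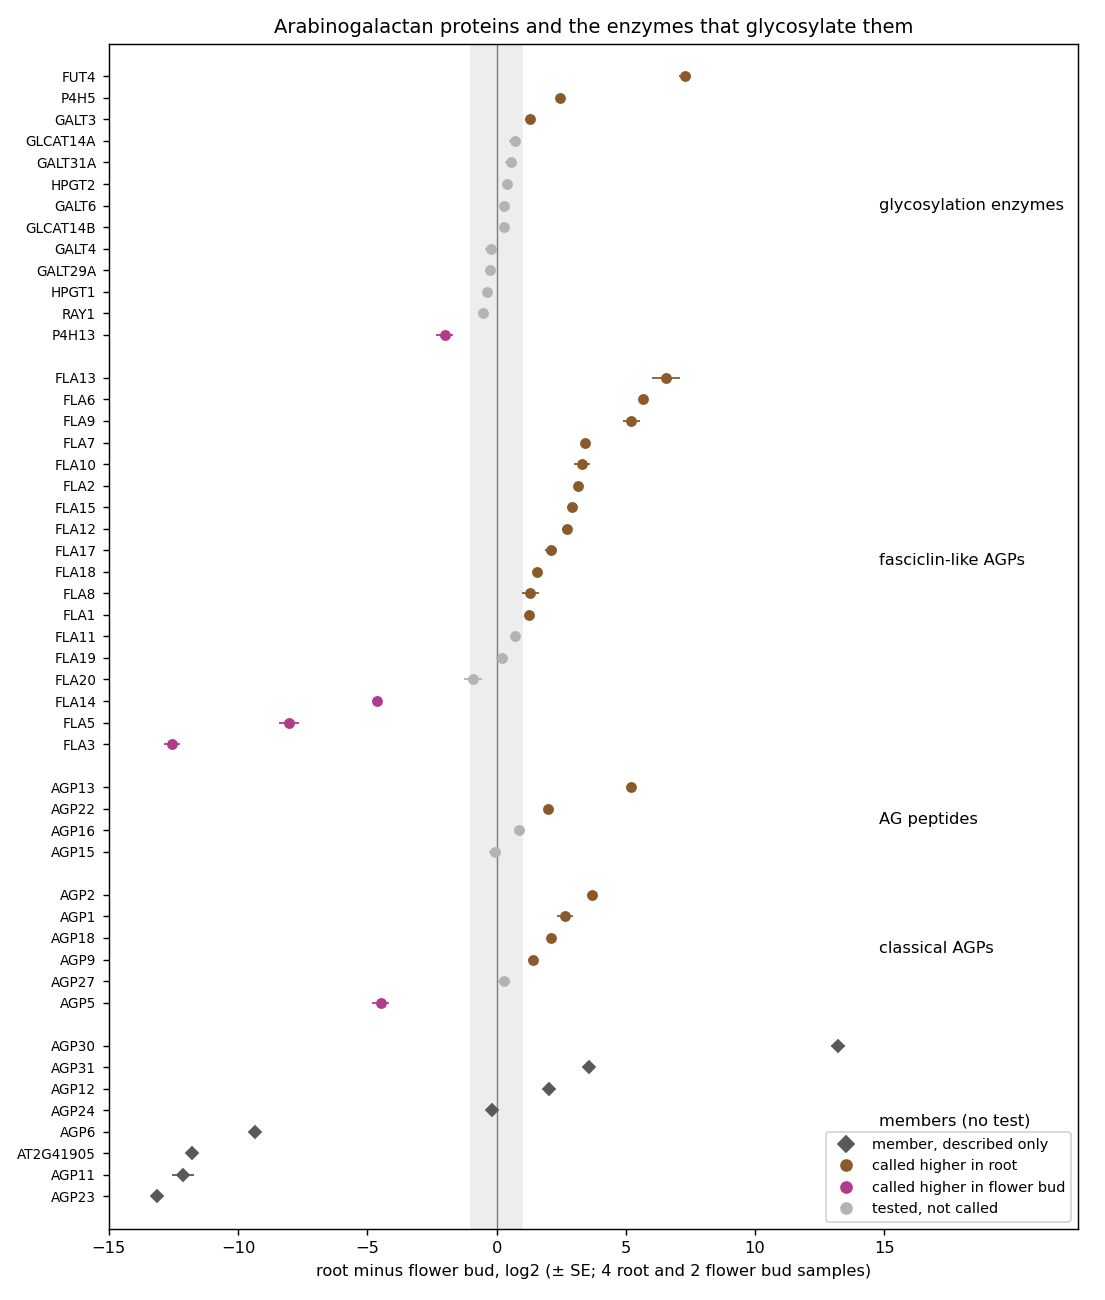
Difference between root and flower bud means (log2, positive when root is higher), with standard errors over 4 root and 2 flower bud samples, for the 8 described genes (diamonds, no test), 3 lists of other arabinogalactan protein genes and the glycosylation enzymes; brown marks calls higher in root, purple higher in flower bud, grey no call, and the grey band marks 2-fold. AGP30 and FLA5 are drawn at their measured values, although 1 tissue gave only a bound. Most fasciclin-like genes lay to the right, FLA3 far to the left, and 9 of 13 enzymes within the band.

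Of the 6 classical arabinogalactan protein genes on the array, of 14 listed, 4 were higher in root and only AGP5 in flower bud; their median was 1.75. AGP2 was at 4.10, 4.39, 4.65 and 4.14 in root and at 0.80 and 0.47 in samples A and B, a difference of 3.69 ± 0.21 (adjusted p = 7.11e-06). AGP1 was at 2.64 ± 0.30 (adjusted p = 2.53e-04) and AGP18, a lysine-rich member, 4.29-fold higher in root (adjusted p = 2.04e-05). AGP5 went the other way. It was at -4.11, -3.56, -2.96 and -3.29 in root and at 0.82 and 1.20 in flower bud, a difference of -4.49 ± 0.32 (adjusted p = 2.51e-05). Its groups did not overlap, as for 78.8% of all gene models tested. AGP27 was at 0.28 ± 0.25 (adjusted p = 0.343).

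Of 4 other arabinogalactan peptide genes on the array, of 7 listed, 2 were called, both higher in root; their median was 1.44. AGP13 was at 3.12, 3.24, 3.40 and 3.61 in root and at -1.92 and -1.79 in flower bud, a difference of 5.20 ± 0.17 (adjusted p = 6.56e-07). AGP22 was at 2.00 ± 0.17 (adjusted p = 6.11e-05). AGP16 and AGP15 were at 0.88 ± 0.22 and -0.07 ± 0.22, under 2-fold, and AGP16 was called higher in root with equal medians at 1.13 (adjusted p = 0.00557). AGP15 was at 4.64 to 5.34 in root and at 4.94 and 4.97 in flower bud, so its groups overlapped.

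Fasciclin-like members carry an adhesion domain beside the glycosylated stretches. Of 18 on the array, of 21 listed, root was higher for 12 and flower bud for 3; their median was 1.84. The 12 lay between 1.27 (FLA1) and 6.55 (FLA13). FLA13 was at 0.31, 0.82, 0.96 and 1.91 in root and at -4.86 and -6.24 in flower bud (6.55 ± 0.53, adjusted p = 4.47e-05); the difference became 7.24 when sample A was left out and 5.86 when sample B was. FLA9 was at 5.21 ± 0.32 (adjusted p = 1.24e-05). FLA6 had a measured difference of 5.67 ± 0.14 (adjusted p = 2.11e-07), but only 1 flower bud array was well above background, and its size rests on flower bud signals near background.

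The fasciclin-like genes higher in flower bud were FLA3, FLA5 and FLA14. FLA3, known in A. thaliana for the inner pollen wall, was at -8.10, -7.39, -7.15 and -7.06 in root and at 5.13 and 5.12 in flower bud. Its difference was -12.55 ± 0.30 (adjusted p = 1.79e-07). In root 3 arrays were well above background, each at 1 of its 2 spots, and signals before scaling were 16.2 to 21.6. The size of the FLA3 difference thus rests on root signals near background, which its standard error does not cover. FLA3 and FLA5 entered the fit through flower bud alone, and FLA6 and FLA17 through root alone, so a difference in these directions was favoured by the filter. FLA5 was not well above background in any root replicate, and its flower bud level was at least 56.2-fold higher. The fit's adjusted p of 3.96e-06 belongs to the measured difference of -8.02, not to this bound. Sample B exceeded sample A by 1.47, and the measured difference became -8.76 when sample A was left out and -7.29 when sample B was. FLA14 was at -4.62 ± 0.21 (adjusted p = 2.68e-06). Its root signals before scaling were only 20.0 to 30.3, though well above background on all root arrays, so the size of its difference rests on low signals. With normexp and the 75th percentile FLA3, FLA5, FLA14 and FLA6 were at -10.28, -4.22, -2.92 and 3.60, the FLA5 value being below its bound.

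Before the sugar chains are added, prolyl hydroxylases make hydroxyproline in the backbone. Galactosyltransferases, a glucuronosyltransferase family, fucosyltransferases and other sugar-transferring enzymes then build the chains. Of 13 such enzymes on the array, of 20 listed, 3 were higher in root, 1 in flower bud and 9 in neither, with a median of 0.28. FUT4, a fucosyltransferase of arabinogalactan, was at 1.72, 1.62, 1.49 and 1.09 in root and at -5.53 and -6.07 in flower bud, a difference of 7.28 ± 0.24 (adjusted p = 6.08e-07). P4H5, a prolyl hydroxylase, was at 2.46 ± 0.15 (adjusted p = 9.57e-06), and the galactosyltransferase gene GALT3 at 1.28 ± 0.18 (adjusted p = 7.30e-04). GALT3 signals before scaling were low in both tissues, at 32.5 to 67.3 in root and 23.7 to 39.9 in flower bud. In flower bud 6 of its 8 spots were well above background. P4H13, another prolyl hydroxylase, was 4.00-fold higher in flower bud (adjusted p = 0.00152), with a difference of -1.31 with normexp and quantile normalization. The 9 others lay between -0.54 (RAY1) and 0.70 (GLCAT14A). They included HPGT1 and HPGT2, which attach the first galactose to hydroxyproline, at -0.36 ± 0.12 and 0.40 ± 0.15.

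Some calls near 2-fold depended on the scaling or on 1 sample. Under spike-in scaling AGP9, FLA1, FLA8, FLA18 and GALT3 lost their calls at 0.70, 0.56, 0.60, 0.86 and 0.57, while FLA20, RAY1 and HPGT1 were called higher in flower bud at -1.62, -1.25 and -1.07, giving 14 other arabinogalactan protein genes higher in root and 5 in flower bud, and 2 and 3 enzymes. Without sample A, FLA8 lost its call (adjusted p = 0.0889) and FLA20 was called at -1.48 (adjusted p = 0.00495), as it was without root replicate 1 at -1.01 (adjusted p = 0.0463). GALT3 fell under 2-fold with normexp, at 0.78 with either normalization.

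**Figure D4:**
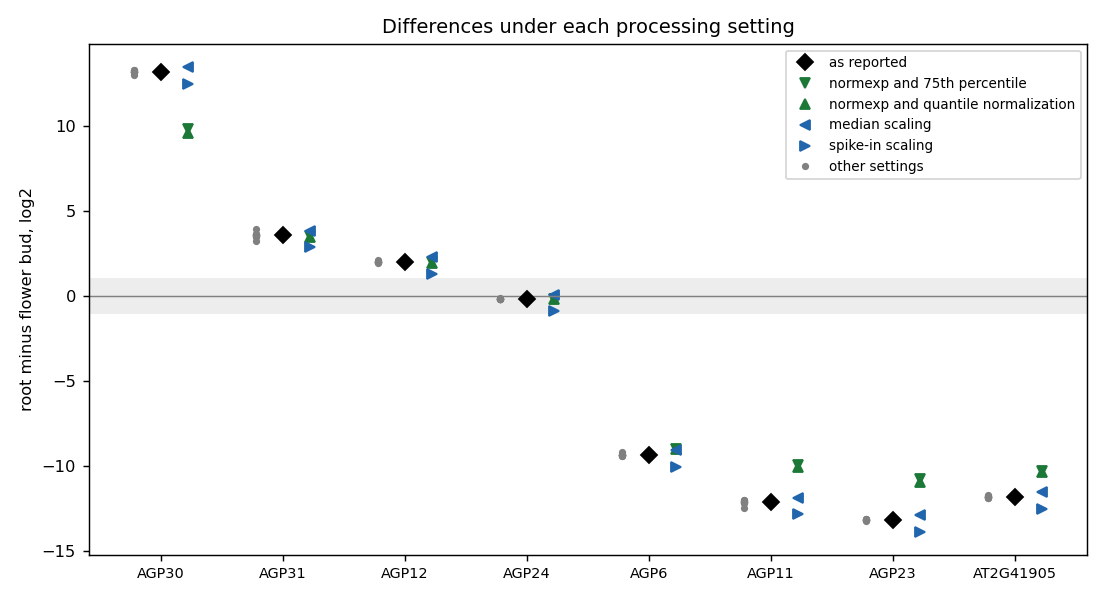
Difference between root and flower bud means (log2, positive when root is higher) for the 8 described genes as reported (diamonds), with normexp background correction (green), with the other scalings (blue) and under all other settings (grey); the grey band marks 2-fold. The 3 root-side and 4 flower bud-side genes kept their side and stayed beyond 2-fold under each setting in which they were measured, and AGP24 stayed within the band, on either side of 0.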

How the data were processed

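Transcript levels were measured on 4 root and 4 flower bud arrays, grouped by their titles. Per the file headers, scanning software (Agilent Feature Extraction, release 10.10.1.1) had subtracted background from each spot's intensity and removed spatial trends. By the same headers it had applied no normalization across arrays. Raw median intensity, local background and spot marks were read per spot from the same files. A deposited table of log2 values matched these signals once they were scaled per array and centred per probe on the median (r at least 0.99998). Its column medians were 0.02, -0.05, 0.06 and 0.08 in root, and -0.04, -0.05, -0.02 and 0.06 in flower bud. The authors' steps for it are not stated in the labels, and its scale, centring and direction rest on this match.

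Outlier spots were left out, log2 signals of a probe's spots were averaged, and each array's 75th percentile over non-control spots was subtracted (2541 to 4468 in root, 4803 to 5118 in flower bud). A probe was well above background where at least 0.5 of its spots were. The brighter of 2 probes stood for a gene model, and 15 probes with only outlier spots on an array were dropped. The 26420 models well above background on all arrays of 1 tissue or both were fitted with limma 3.58.1 in R 4.3.3 (package data.table, version 1.17.8), two-sided, with Benjamini-Hochberg adjustment, 4 residual and 2.44 prior degrees of freedom. The fit was tested on simulated data. Python 3.11.15 (numpy 2.4.6, pandas 2.3.3, matplotlib 3.10.9) read the files and drew the plots. Alternatives were other background corrections, scalings, filters and probes, the deposited table, separate arrays and left-out samples.

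Genes named were all measured members, per family list the 3 called models with the largest fold in each direction, and models within 2-fold where a value is given. AGP9, FLA1, FLA8 and FLA18, whose calls changed with a setting, FLA17 and markers beyond the 2 brightest of a list were named after their values were seen. Members and lists were chosen with earlier results of these data known.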

Additional observations from a re-analysis of the deposited data

Results flagged for a closer look

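In 49 sets of 4 root values, 1 value stood far from the other 3 in 4 sets; chance alone flags about 1 in 20. AGP11 was at -6.35 in root replicate 4 and at -7.85 to -7.70 in the others, where it was not well above background. AGP24 was at 3.79 in root replicate 1 and at 4.06 to 4.10 in the others. GALT6 was at -1.31 in root replicate 4, and FLA5, not well above background on any root array, was at -10.00 in root replicate 2. The cause was not tested.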

How the results depend on the processing

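Over all gene models 13606 were called, with 9327 to 14494 under the alternatives. Spike-in scaling left 3958 higher in root (6412 as reported) and raised the glycosylation enzymes higher in flower bud from 1 to 3. With only models well above background on all 8 arrays, 4268 of all models were higher in flower bud (7194 as reported), as were 2 of the other arabinogalactan protein genes (4 as reported), since FLA3 and FLA5 were no longer included, and 2 of the described genes (4 as reported), since AGP11 and AGP23 were not. Without AGP30, 2 described genes were higher in root (3 as reported). Leaving out 1 sample gave 13122 to 13822 calls over all models, 17 to 18 other arabinogalactan protein genes higher in root and 4 to 5 in flower bud; where 1 flower bud sample was left, it was assumed to vary like the root samples. Replicate numbers did not pair the tissues (correlations of deviations -0.06 to 0.04), and all 8 arrays taken as separate samples gave 13769 calls without and 13765 with the replicate block, and again 18 and 4 for the other arabinogalactan protein genes. No described gene changed sides under any setting, except the sign of AGP24. Signals near background limit the root values of AGP11 and AGP23 and the flower bud value of AGP30. The root signals of AT2G41905, at 23.4 to 39.9 before scaling, were also low, though well above background.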
